A study of Mus musculus with 10 samples.

Results

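Cells write, copy and erase DNA methylation with a small set of enzymes, and 10 genes of this machinery were followed here in mouse embryonic fibroblasts (MEFs) with and without Zbtb4. The genes were chosen by symbol for their role. They include the methyltransferases Dnmt1, Dnmt3a and Dnmt3b with the cofactor Dnmt3l, and the maintenance factor Uhrf1 with its paralogue Uhrf2. The others are the dioxygenases Tet1, Tet2 and Tet3, and the glycosylase Tdg. Of the 10, 9 had a probe set that carries their symbol alone, among 22180 genes measured in this way. Tdg is the exception: both probe sets that carry its symbol also carry another, so no value is given for it. Each of the 9 measured genes has a single such probe set.

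The study set Zbtb4 knock-out MEFs (5 arrays) against wild-type MEFs (5 arrays) to find transcripts that depend on Zbtb4, whose zinc fingers bind CpG sites that carry methylation. The cells were primary fibroblasts from the dorsal skin of embryos at embryonic day 13.5, and total RNA was labelled with biotin for one-colour Affymetrix arrays. The labels give neither the deleted part of Zbtb4 nor strain, sex or passage, and number the arrays of each genotype 1 to 5 without saying that they are separate embryos. P-values therefore measure only the spread between these samples, which may be in part technical.

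DNA methylation in mammals sits mainly on the cytosine of CpG pairs. Dnmt3a and Dnmt3b place new marks, and Dnmt3l, which has no catalytic activity of its own, helps them. After replication only the old strand is methylated. Uhrf1 recognises this half-methylated DNA and brings in Dnmt1, which copies the pattern, so both genes are expressed mostly in dividing cells. Tet enzymes oxidise the methyl group and Tdg removes the oxidised base.

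Dnmt1 and Uhrf1, which varied together over the arrays as described further on, each hold the same 8-base word of the E2F type near an annotated start site. E2F proteins drive genes of S phase, the phase of DNA replication. The stretches are shown to let the shared word be seen. Sequences are from RefSeq promoter windows of 300 bases (250 before to 50 after each annotated start, build GRCm38.p6), read 5′ to 3′ on the strand of the gene, with the word in capitals. All 10 genes matched the table, with 17 windows in all. For Uhrf1 the 250 bases before its downstream start are printed (chr17:56304063-56304312, + strand). For Dnmt1 only 30 bases around the word are printed (chr9:20952824-20952853, - strand). Both starts lie downstream of another annotated start of the same gene, by 976 bases for Uhrf1 and 356 bases for Dnmt1.
Uhrf1: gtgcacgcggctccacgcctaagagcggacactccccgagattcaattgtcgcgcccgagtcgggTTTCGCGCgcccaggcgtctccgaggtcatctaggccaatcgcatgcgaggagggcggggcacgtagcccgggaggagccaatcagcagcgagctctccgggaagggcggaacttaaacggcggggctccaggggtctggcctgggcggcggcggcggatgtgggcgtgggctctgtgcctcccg
Dnmt1: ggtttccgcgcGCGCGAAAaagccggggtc

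The word TTTCGCGC is printed as written for Uhrf1 and as its reverse complement for Dnmt1. Its first base in the direction of the gene stands at -185 from the Uhrf1 start and at -219 from the Dnmt1 start, the third of 3 annotated for that gene. The same Dnmt1 window holds TTTGGCGC at 34 bases after the start. The search covered TTTCGCGC, TTTGGCGC, TTTCCCGC and TTTGCCGC on both strands. Of 32851 promoter windows of the same length, 0.32% hold TTTCGCGC and 2.26% hold any of these words. The word itself contains CpG pairs, and the windows of Dnmt1 and Uhrf1 that hold it are rich in them. Each has 33 CpG pairs, and 91.4% of all promoter windows have fewer. The share among windows equally rich in CpG pairs was not determined, so the share over all windows can make the word look too rare. No window of the other 8 genes holds one. Uhrf2 is among these, and it too correlated by rank with replication genes, as described further on. What part the word has in the shared pattern was not tested. A match describes the letters and does not show that a factor is bound.

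CpG pairs, the substrate of these enzymes, differed widely in number between the windows of the genes themselves. The single window of Tet2 holds 57 and that of Dnmt3b 30, and the windows of Dnmt3a hold 46, 47 and 18. Those of Dnmt3l hold 6, 4 and 3, against a median of 7 over all promoter windows. The words CTGCCATC and CCGCCATC, which make up the core sequence known for human ZBTB4, occur on either strand in 3.08% of all windows and in 0 of the 17 windows of these genes.

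The targeted gene was lower on the arrays labelled knock-out. Zbtb4 had log2 values of 5.44, 5.76, 5.04, 5.62 and 5.39 on knock-out arrays 1 to 5, against 6.06, 6.03, 5.94, 6.23 and 6.11 on wild-type arrays 1 to 5. Every knock-out array lay below every wild-type array (exact two-sided permutation p = 0.00794, the smallest that 5 against 5 arrays allow; limma adjusted p = 0.628 over all genes). Whether the probes lie in the deleted part is not stated, so the remaining signal does not measure intact transcript. All 12 fibroblast markers examined, such as Col1a1 and Pdgfra, lay above the median gene of every array, while all 8 pluripotency and early germ cell markers lay below it. Macrophage markers had a mean level of 5.31 on knock-out array 3 and of 4.07 to 4.63 on the other knock-out arrays, against 4.26 to 4.58 in the wild type. Of these 10 markers, 9 had a higher mean in the knock-out, against 50.7% of all genes, with a median log2 difference of 0.20. On every array 4 of the macrophage markers lay above the median gene and 4 others below it. Endothelial markers had a higher mean for 7 of 8 genes, with a median of 0.13 and single genes from -0.19 to 0.61. Their list levels ran from 3.60 to 3.85 in the knock-out and from 3.44 to 3.80 in the wild type. On every array 6 of the 8 lay below the median gene. In both lists 0 genes passed the limma test. At an unadjusted limma p under 0.05 there were 0 of 10 macrophage and 2 of 8 endothelial genes, against 5.98% of all genes. Keratinocyte, skeletal muscle, erythroid, and melanocyte and Schwann cell markers were examined too, and 0 passed. Of these, 1 of 3 erythroid genes lay under that unadjusted level. Single skeletal muscle markers differed by -0.17 to 0.45. The part of other cell types in the results below was not tested. In RNA from whole cultures, fewer cells of a type and less RNA per cell cannot be told apart.

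None of the 9 measured genes passed the test between genotypes. In limma's fit with Benjamini-Hochberg adjustment over all 22180 genes, 0 of 9 had an adjusted p under 0.05, as 0% of all genes did, and their adjusted p-values ran from 0.832 to 0.999. At an unadjusted p under 0.05 the count was 0 of 9, against 5.98% of all genes (3.25% higher and 2.73% lower in the knock-out). The genotypes' arrays overlapped for all 9, and 0.987% of all genes had groups that did not overlap. Of the 9 means, 5 were higher and 4 lower in the knock-out, against 50.7% of all genes higher and 49.3% lower. The median absolute log2 difference was 0.11 for the 9 genes and 0.078 for all genes. Every one of the 9 intervals (95%) lay inside a 1.5-fold difference in either direction, as did those of 95.8% of all genes.

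**Figure D1:**
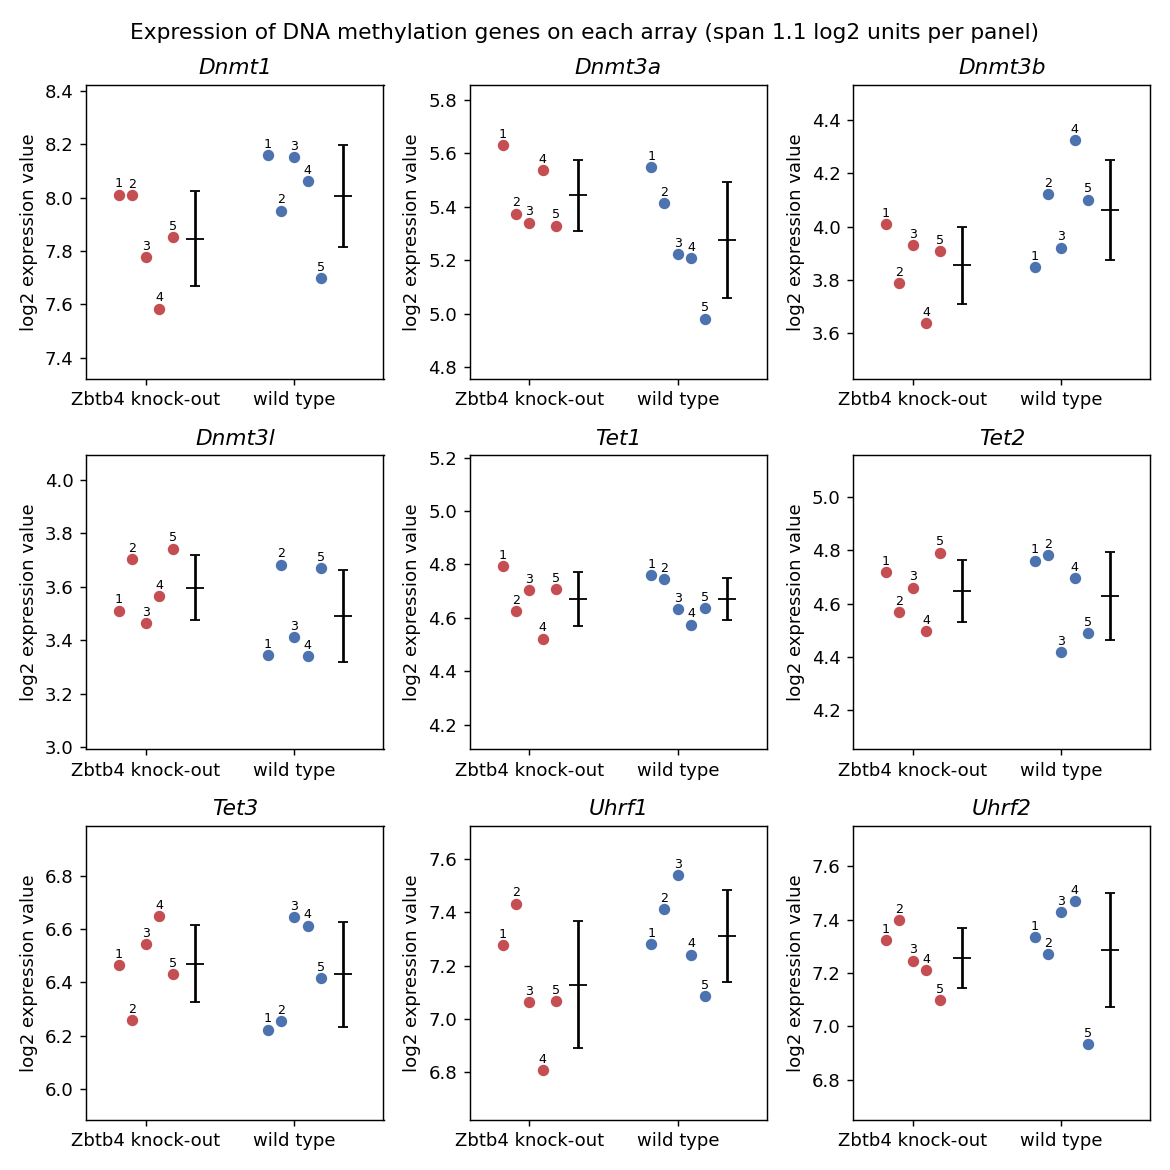
Log2 expression values of the 9 measured genes on each array (points, numbered by array), with Zbtb4 knock-out arrays left and wild-type arrays right; black marks give the mean and SD (n = 5 each). The genotypes overlap in every panel, and each panel spans the same number of log2 units on its own vertical range.

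Among the genes that place new methylation, Dnmt3b had the smallest p-value of the 9. Dnmt3b had log2 values of 4.01, 3.79, 3.93, 3.64 and 3.91 on knock-out arrays 1 to 5, against 3.85, 4.12, 3.92, 4.32 and 4.10 on wild-type arrays 1 to 5. All 5 knock-out arrays lay below the wild-type median, and 2 of them lay below every wild-type array. On the log2 scale, knock-out minus wild type came to -0.21 (standard error 0.10, 95% interval -0.43 to 0.013; limma adjusted p = 0.832; exact permutation p = 0.0794). Only 1 of the 10 arrays put Dnmt3b above its median gene, and the level at which signal becomes background is not known for these values.

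Dnmt3a, the other catalytic enzyme of this pair, stood on the opposite side. Its log2 values were 5.63, 5.37, 5.34, 5.54 and 5.33 on knock-out arrays 1 to 5, against 5.55, 5.42, 5.22, 5.21 and 4.98 on wild-type arrays 1 to 5. All 5 knock-out arrays lay above the wild-type median, but 1 alone exceeded every wild-type array. Knock-out minus wild type came to 0.17 (standard error 0.11, 95% interval -0.066 to 0.40; limma adjusted p = 0.842; exact permutation p = 0.183). Wild-type array 5 was the lowest of all, and without it the difference was 0.094. Whether the differences of Dnmt3a and Dnmt3b differ from each other was not tested.

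Dnmt3l, the catalytically inactive helper known mainly from germ cells, was dim on every array, below the median gene on all 10. It had log2 values from 3.46 to 3.74 with a median of 3.57 in the knock-out and from 3.34 to 3.68 with a median of 3.41 in the wild type. The genotype means differed by 0.11 (interval -0.10 to 0.31; limma adjusted p = 0.881). It came to 0.070 without knock-out array 5, wild-type array 1 or wild-type array 4.

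The maintenance genes Dnmt1 and Uhrf1 had lower means in the knock-out, by amounts within the spread between arrays. Dnmt1 had log2 values of 8.01, 8.01, 7.78, 7.58 and 7.85 on knock-out arrays 1 to 5, against 8.16, 7.95, 8.15, 8.06 and 7.70 on wild-type arrays 1 to 5. Every knock-out array lay below the wild-type median of 8.06, while wild-type array 5 lay lower than 4 of the 5 knock-out arrays. The means were 7.85 ± 0.18 in the knock-out and 8.01 ± 0.19 in the wild type (SD, n = 5 each). Knock-out minus wild type came to -0.16 (standard error 0.11, 95% interval -0.40 to 0.079; limma adjusted p = 0.853; exact permutation p = 0.222). Without knock-out array 4 it was -0.093.

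Uhrf1, which recruits Dnmt1 to newly copied DNA, followed a similar order of arrays. Its log2 values were 7.28, 7.43, 7.06, 6.81 and 7.07 on knock-out arrays 1 to 5, against 7.28, 7.41, 7.54, 7.24 and 7.08 on wild-type arrays 1 to 5. Knock-out arrays 3, 4 and 5 lay below all wild-type arrays, and knock-out array 2 was the second highest of the 10. Knock-out minus wild type came to -0.18 (standard error 0.12, 95% interval -0.44 to 0.076; limma adjusted p = 0.848; exact permutation p = 0.206). Knock-out array 4 had the lowest value here too, and without it the difference was -0.10.

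Uhrf2, a paralogue of Uhrf1 that also binds modified DNA but does not replace it in maintenance, showed a smaller difference. It had log2 values from 7.10 to 7.40 with a median of 7.25 in the knock-out, and from 6.93 to 7.47 with a median of 7.33 in the wild type. Wild-type array 5 was the lowest of the 10 and wild-type array 4 the highest, so the knock-out arrays lay within the wild-type range. The genotype means differed by -0.032 (interval -0.26 to 0.19; limma adjusted p = 0.975), and it ran from -0.12 without wild-type array 5 to 0.014 without wild-type array 4.

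The Tet genes differed between genotypes by at most 0.039 in their means. Tet1, best known from embryonic stem cells, averaged 4.67 ± 0.10 in the knock-out and 4.67 ± 0.080 in the wild type (SD, n = 5 each). Its log2 values covered 4.52 to 4.79 with a median of 4.70 in the knock-out, and 4.57 to 4.76 with a median of 4.64 in the wild type. The difference of 0.00052 had an interval from -0.16 to 0.16, so for these values a change beyond 1.12-fold in either direction lies outside it. Array medians of genes ran from 4.29 to 4.34, not far below Tet1 and Tet2. Where signal becomes background is not known, so a narrow interval here need not describe the transcript. The Tet1 difference was close to 0. Its sign turned to negative under quantile normalization, centring on the array median and array weights.

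Tet2, the family member often mutated in blood cancers, had log2 values from 4.50 to 4.79 with a median of 4.66 in the knock-out and from 4.42 to 4.78 with a median of 4.69 in the wild type. Its difference was 0.018 with an interval from -0.18 to 0.22 (limma adjusted p = 0.986). Tet3, which oxidises methylated DNA in the fertilised egg, had log2 values from 6.26 to 6.65 with a median of 6.46 in the knock-out and from 6.22 to 6.65 with a median of 6.42 in the wild type. Its difference was 0.039 with an interval from -0.19 to 0.27 (limma adjusted p = 0.967). For both genes the sign turned with single arrays left out, with values from -0.034 to 0.056 for Tet2 and from -0.013 to 0.093 for Tet3.

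**Figure D2:**
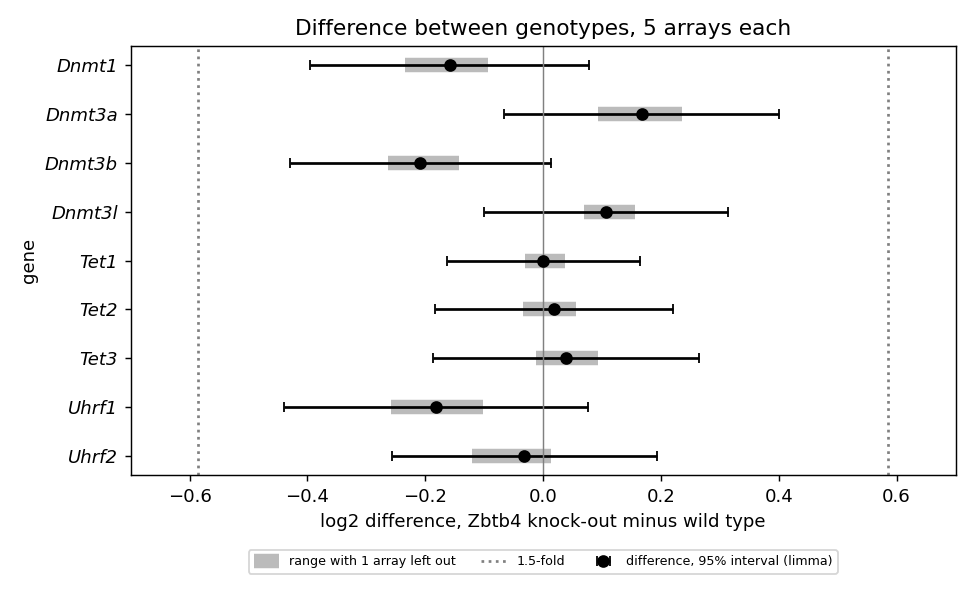
Log2 difference of each of the 9 genes, Zbtb4 knock-out minus wild type (points), with limma's 95% interval (black lines) and the range of values when 1 of the 10 arrays is left out (grey bars). All intervals include 0 and lie inside the dotted lines at 1.5-fold.

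Of the maintenance genes, Dnmt1 and Uhrf1 correlated linearly with the level of DNA replication genes over all arrays. Neither relation passed after adjustment by rank, within genotypes or with the farthest arrays left out, as given below. The share of all genes that follow this level as closely was not tested. A relation particular to these genes therefore cannot be told from variation shared by many genes. The level was taken as the mean log2 value of 26 measured genes of G1/S transition and replication, among them Mcm helicase subunits and Pcna. It was 6.64, 6.70, 6.50, 6.28 and 6.41 on knock-out arrays 1 to 5, against 6.61, 6.64, 6.75, 6.76 and 6.45 on wild-type arrays 1 to 5. Knock-out arrays 3, 4 and 5 and wild-type array 5 were thus the 4 lowest. Of the 26 genes, 24 had a lower mean in the knock-out, against 49.3% of all genes. Their median log2 difference was -0.17, against 0.0020 over all genes, and 0 passed the test.

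Over the 10 arrays Uhrf1 correlated with this level with Pearson's r = 0.90 (permutation p = 0.00052, adjusted 0.0223 over 45 relations) and Spearman's rho = 0.75 (permutation p = 0.0166, adjusted 0.183). Dnmt1 correlated with r = 0.88 (permutation p = 0.00099, adjusted 0.0223) and rho = 0.76 (permutation p = 0.0152, adjusted 0.183). Uhrf2 had r = 0.76 (permutation p = 0.00991, adjusted 0.111) and rho = 0.92 (permutation p = 0.00066, adjusted 0.0297). The rank correlations of Dnmt1 and Uhrf1 and the linear one of Uhrf2 thus did not pass after adjustment.

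These linear relations also held their sign in the alternatives below. Where tested, adjusted p-values were higher than over all arrays for Dnmt1 and Uhrf1, and lower for Uhrf2. Within genotypes, after each value's genotype mean was subtracted, r was 0.87 for Uhrf1, 0.85 for Dnmt1 and 0.80 for Uhrf2, each with an adjusted permutation p of 0.0719. Without knock-out arrays 4 and 5, the 2 farthest from the median level, r was 0.77 for Uhrf1 (adjusted exact permutation p = 0.206), 0.82 for Dnmt1 (0.194) and 0.89 for Uhrf2 (0.0100). The calls for Dnmt1 and Uhrf1 were thus lost and that for Uhrf2 was made, with 8 arrays in place of 10. Over the 6 arrays with low Y-linked signal, 3 of each genotype, r was 0.88 for Uhrf1, 0.94 for Dnmt1 and 0.71 for Uhrf2.

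The replication level was also used as a covariate in ordinary least squares fits of single genes, an alternative added after the data were seen. Standard errors of these fits are not limma's and are not directly comparable with those above. With this covariate the genotype difference of Dnmt1 was -0.015 with a standard error of 0.074. That of Uhrf1 was -0.016 with a standard error of 0.077, and that of Dnmt3b was -0.16 with a standard error of 0.12. That of Dnmt3a, 0.17 without the covariate, was 0.19 with a standard error of 0.14. That of Uhrf2 turned from -0.032 to 0.094, with a standard error of 0.077. In the level itself, 24 of 26 genes had a lower mean in the knock-out, so level and genotype cannot be fully told apart. What part the replication level had in the differences was not tested. Dnmt3b itself had r = 0.51 with the level (permutation p = 0.132, adjusted 0.542), and Dnmt3a had r = -0.084 (permutation p = 0.817, adjusted 0.949). The Tet genes had r from -0.15 to 0.20 and Dnmt3l r = -0.42, and none of these passed.

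**Figure D3:**
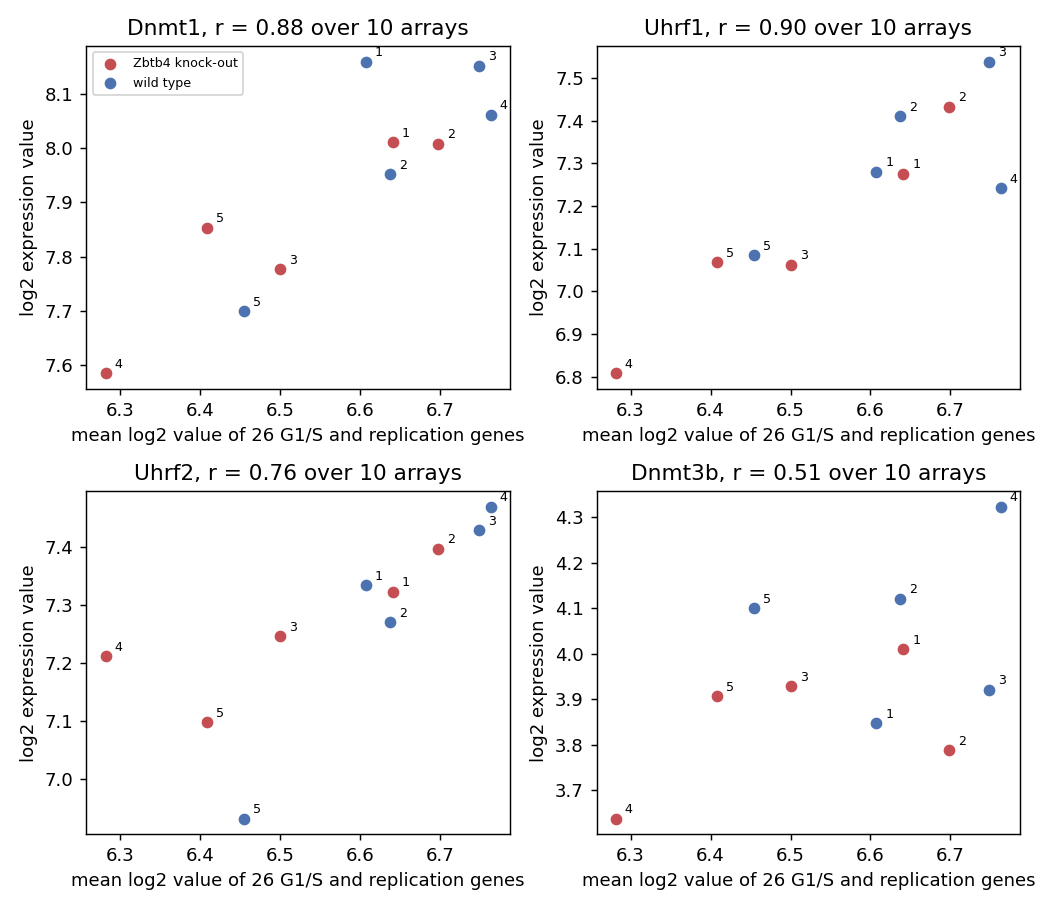
Log2 expression values of Dnmt1, Uhrf1, Uhrf2 and Dnmt3b (vertical axes) against the mean log2 value of 26 G1/S and replication genes (horizontal axes) on 5 Zbtb4 knock-out arrays and 5 wild-type arrays, numbered by array. Knock-out array 4 has the lowest replication level and the lowest Dnmt1, Uhrf1 and Dnmt3b, and arrays of both genotypes mix along each panel.

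Of 36 pairs among the 9 genes, only Dnmt1 and Uhrf1 passed after adjustment. Their r was 0.85 (permutation p = 0.00184, adjusted 0.0276) and rho was 0.73 (permutation p = 0.0203, adjusted 0.183), so the rank correlation did not pass. The linear call was lost without knock-out array 4 and wild-type array 3, the 2 farthest from the median of Uhrf1 (r = 0.68, adjusted exact permutation p = 0.349), and within genotypes (r = 0.82, adjusted permutation p = 0.0825). Dnmt1 and Uhrf2 had r = 0.73 (adjusted permutation p = 0.134), and Tet1 and Tet2 had r = 0.67 (adjusted permutation p = 0.288). Dnmt3a and Dnmt3b had r = -0.48 (adjusted permutation p = 0.542). Of the 36 pairs, 22 had r above 0 and 14 below, from -0.60 to 0.85.

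**Figure D4:**
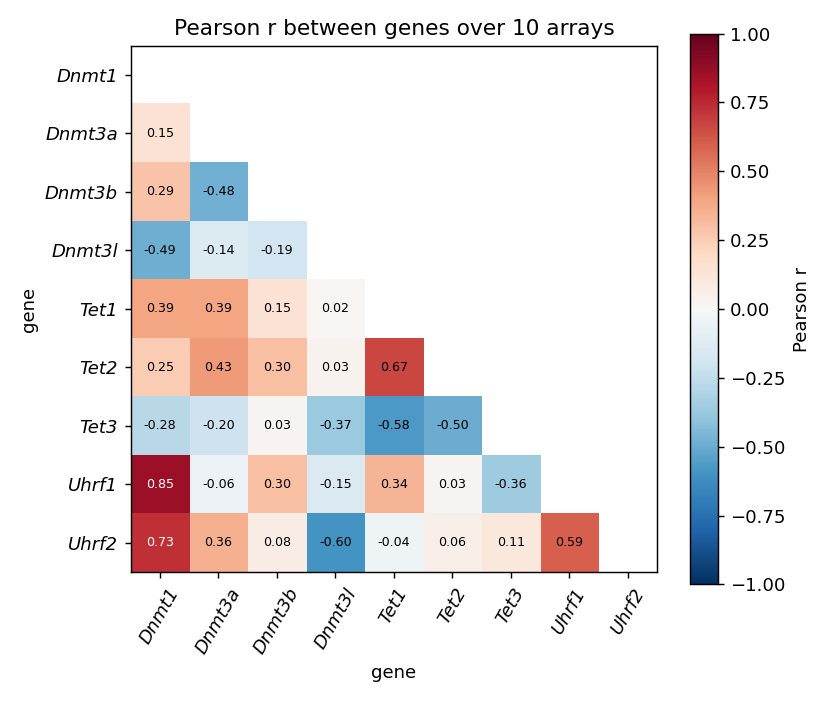
Pearson correlation between each pair of the 9 genes over the 10 arrays (both axes list genes, colour and number give r). The pair of Dnmt1 and Uhrf1 has the highest r, 0.85.

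The genes whose pattern over the 10 arrays was most like that of Dnmt1 were taken from 11089 other genes brighter than the median gene. They were Mcm4 (r = 0.95), a subunit of the replicative helicase, Mki67 (r = 0.95), a marker of dividing cells, Nuf2 (r = 0.94), a kinetochore protein, and Chsy1 (r = 0.93), an enzyme of chondroitin sulphate synthesis. For Uhrf1 they were Ep400 (r = 0.96), a chromatin remodeller, Zkscan8 (r = 0.96), a zinc finger gene, Helq (r = 0.96), a DNA helicase, and Mcm4 (r = 0.94). Each was picked as the closest of many over few arrays, so these values are a description. Uhrf1 ranked 44 among the candidates for Dnmt1, and Dnmt1 ranked 52 among those for Uhrf1.

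Mki67 itself had log2 values of 8.46, 8.45, 8.28, 7.99 and 8.28 on knock-out arrays 1 to 5, against 8.64, 8.59, 8.56, 8.56 and 8.10 on wild-type arrays 1 to 5. The genotype means differed by -0.20 (interval -0.45 to 0.058; limma adjusted p = 0.842). Knock-out array 4 and wild-type array 5 were the 2 lowest, as for Dnmt1. Pcna, the sliding clamp to which Dnmt1 binds at replication forks, differed by -0.061 (limma adjusted p = 0.936).

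Genes that work beside the 9 were examined as lists, and 0 genes in any of them passed the test in either direction. Of all genes, 50.7% had a higher and 49.3% a lower mean in the knock-out. Genes of a list were read on the same arrays, so their directions are not independent. Partners in maintenance and recruitment had lower means for 14 of 16 genes, with a median log2 difference of -0.072. Their mean level overlapped between genotypes, from 6.63 to 6.87 in the knock-out and from 6.67 to 6.90 in the wild type. At an unadjusted limma p under 0.05 there were 0 of 16 genes, against 5.98% of all genes. Lig1, the ligase that joins newly made DNA fragments, differed by -0.23, with means of 7.05 ± 0.21 in the knock-out and 7.28 ± 0.29 in the wild type (SD, n = 5 each; limma adjusted p = 0.842). Cdca7, a partner of the remodeller Hells, differed by -0.21, Hells itself by -0.18 and the histone methyltransferase gene Setdb1 by -0.14. The arrays of the genotypes overlapped for all 4.

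Readers of methylated CpG had lower means for 5 of 7 measured genes, with a median of -0.051. Zbtb4 is counted among them, and as the targeted gene its direction was given by the design. At an unadjusted limma p under 0.05 there were 2 of 7 genes, Zbtb4 and Mbd4, against 5.98% of all genes. Mbd4, a glycosylase that repairs mismatches at CpG sites, had log2 values from 4.02 to 4.26 in the knock-out and from 4.23 to 4.40 in the wild type. Its difference was -0.17 with an interval from -0.32 to -0.010, and it did not pass over all genes (limma adjusted p = 0.824). Mbd2 differed by -0.079 and Mbd1 by 0.097.

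Base excision repair, which completes demethylation after Tdg, had higher means for 7 of 10 measured genes and a median of 0.045. The ligase gene Lig3 differed by -0.26, the polymerase gene Polb by -0.19, the stress gene Gadd45g by 0.16 and the glycosylase gene Smug1 by 0.10, with limma adjusted p-values from 0.839 to 0.857. The cycle that supplies methyl groups had higher means for 4 of 10 genes and a median of -0.025. In it, the mitochondrial serine hydroxymethyltransferase gene Shmt2 differed by -0.22, Mthfd1 by -0.17, the cytosolic Shmt1 by 0.11 and Bhmt by 0.19. Of 8 genes tied to the supply of 2-oxoglutarate, the cosubstrate of Tet enzymes, or to their partner Ogt, 7 had lower means, with a median of -0.084. Ogt differed by -0.13, Idh2 by -0.14, Idh1 by -0.089 and Fh1 by -0.080 (limma adjusted p from 0.848 to 0.895).

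Some germline genes stay silent in body cells through methylation of their promoters. Of 19 measured, 15 had higher means in the knock-out, against 50.7% of all genes, with a median log2 difference of 0.047. The list's mean level overlapped between genotypes, from 2.51 to 2.72 in the knock-out and from 2.48 to 2.64 in the wild type. At an unadjusted limma p under 0.05 there were 0 of 19 genes, against 5.98% of all genes. On all 10 arrays 18 lay below the median gene, where it is not known whether signal exceeds background. Mov10l1, a helicase of the piRNA pathway, averaged 2.95 ± 0.19 in the knock-out and 2.77 ± 0.12 in the wild type (SD, n = 5 each), or 0.18 higher (limma adjusted p = 0.841). Rpl10l, a testis copy of a ribosomal protein gene, differed by 0.15, Asz1 by 0.16 and Dpep3 by 0.14. Rpl10l had groups that did not overlap, as did 0.987% of all genes. Its values ran from 1.90622 to 2.27 in the knock-out and from 1.82 to 1.90575 in the wild type, so the nearest values of the groups all but touch.

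**Figure D5:**
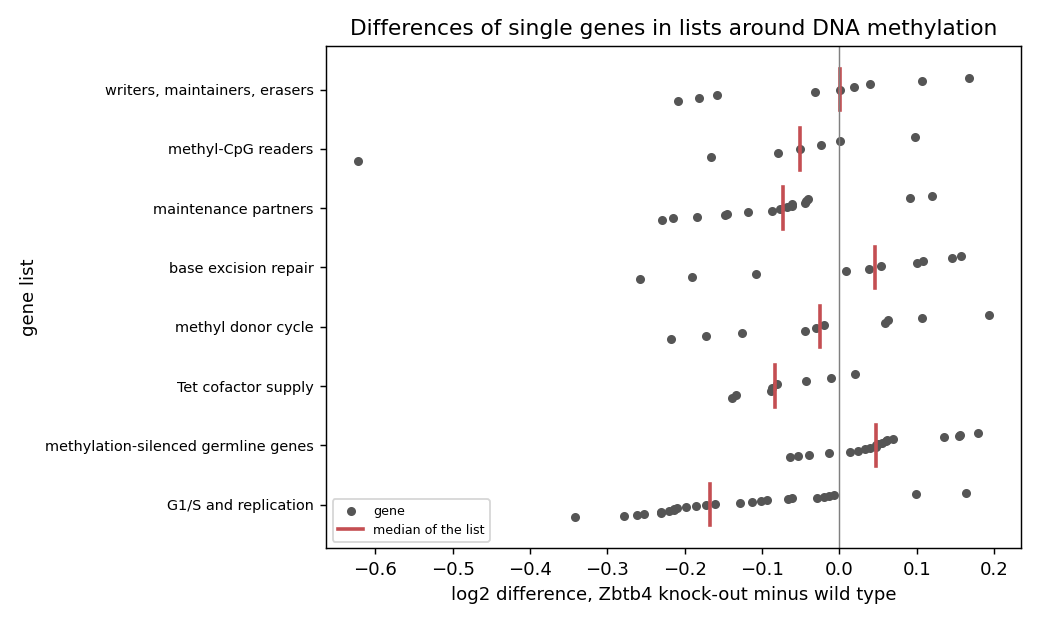
Log2 difference of each gene, Zbtb4 knock-out minus wild type (grey points), in 8 gene lists around DNA methylation, with each list's median (red line). Medians run from -0.17 for G1/S and replication genes to 0.047 for germline genes, and the single point far to the left is Zbtb4.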

How the data were processed

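Values are the authors' deposited log2 expression values, 1 column per array for 41345 probe sets. The log2 scale is judged from their range, and the authors' summarisation, background and normalization are not given in the sources used here. Array medians of genes ran from 4.29 to 4.34. The platform annotation given with the table supplied gene names: 23521 probe sets had 1 symbol, 1814 several and 16010 none. Where a gene had several probe sets, the brightest on average was kept (22180 genes).

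The genotype difference of each gene (knock-out minus wild type) came from limma 3.58.1 in R 4.3.3, using lmFit and eBayes with no filter and no covariate. Adjustment was by Benjamini-Hochberg over all genes (threshold 0.05). Single values were compared by exact two-sided permutation over 252 splits. Two-sided permutation tests of correlations used 100000 resamples and were adjusted over 45 relations (Tdg left out). All measured members are named, with Zbtb4, Mki67, Pcna, the 4 genes with the smallest p of each DNA methylation list, and the 4 genes most like Dnmt1 and Uhrf1. Members and lists were chosen with earlier results of these data known. The number of arrays limits the precision.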

Additional observations from a re-analysis of the deposited data

How the results depend on the processing

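None of the 9 genes passed the threshold under any alternative with a test across all genes, where the smallest adjusted p was 0.628. Of 179 values under alternatives, 160 kept their direction and 19 turned. Over all genes 0 passed as reported (1326 at an unadjusted p under 0.05), and from 0 to 1 with single arrays left out, the 1 being Thg1l without wild-type array 5, named after its value was seen. The count was 0 with quantile normalization, median centring, the dimmest 40% of genes left out (Dnmt3l among them), averaged or single probe sets, trend and robust variance, array weights, Y-linked signal as a covariate and a threshold of 0.1. With the replicate number as a block it was also 0, and no call changed. Deviations of same-numbered arrays correlated between -0.046 and 0.17, and 2 of 5 knock-out arrays correlated best with their own number. On these values the numbers were not taken to pair the samples. Y-linked signal, given below, was however high on the same array numbers in both genotypes, and the labels do not say whether same-numbered arrays are related. Tet1 turned to -0.011 with quantile normalization, -0.017 with median centring and -0.0080 with array weights. With single arrays left out, differences ran from -0.030 to 0.038 for Tet1, -0.034 to 0.056 for Tet2, -0.013 to 0.093 for Tet3 and -0.12 to 0.014 for Uhrf2; that of Uhrf2 was 0.094 with the replication level as a covariate. Other values moved by over 1.5 times: with quantile normalization Dnmt3l came to 0.069, Tet2 to 0.011, Tet3 to 0.074 and Uhrf2 to -0.0056; with median centring Tet2 came to 0.00080, Tet3 to 0.022 and Uhrf2 to -0.049; with array weights Uhrf2 came to -0.069. With the replication level as a covariate Dnmt3l came to 0.065, Tet1 to 0.019, Tet2 to 0.034 and Tet3 to 0.022. The causes were not tested. The correlation with the replication level lost its call within genotypes for Dnmt1 (0.85) and Uhrf1 (0.87), and turned for Dnmt3a (0.16). Without the 2 farthest arrays, with fewer arrays by construction, the calls of Dnmt1 (0.82) and Uhrf1 (0.77) were lost and Uhrf2 (0.89) passed. There r was 0.21 for Dnmt3a, -0.32 for Tet1, -0.0089 for Tet2 and 0.23 for Tet3, each opposite in sign to its value over all arrays. The call of the pair Dnmt1 and Uhrf1 was lost within genotypes (0.82) and without the 2 farthest arrays (0.68). Signal over background is not known for these values.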

Other observations

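Each genotype held 2 arrays with high and 3 with low signal of 3 Y-linked genes. The mean of Kdm5d, Eif2s3y and Uty was 6.42 and 5.89 on knock-out arrays 1 and 3 and 2.49 to 2.69 on the other 3 knock-out arrays, against 6.26 and 6.18 on wild-type arrays 1 and 3 and 2.52 to 2.78 on the other 3 wild-type arrays. With this mean as a covariate, the log2 difference was -0.21 for Dnmt3b, 0.17 for Dnmt3a, -0.16 for Dnmt1 and -0.18 for Uhrf1. None of the 9 genes had an array that stood apart from the other 4 of its genotype by Dixon's test.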
